A study of Mus musculus with 3 samples.

Results

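The cytochrome P450 (Cyp) and glutathione transferase (Gst) genes expressed in isolated mouse brain vessels were compared between animals lacking connexin 30 (Cx30) and wild-type (WT) animals. A gene was included when its symbol began with Cyp and a digit, or with Gst, one of the class letters a, k, m, o, p, t or z, and a digit. This rule found 122 genes among the 29920 that could be named, of which 102 were Cyp and 20 were Gst genes, and 109 were annotated as protein coding. Another 32 annotated symbols that fit the rule had no transcript identifier matched in the deposited counts and were not analysed here. Among them were Gstp1, the best known pi class transferase, and Cyp39a1.

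Cytochromes P450 are haem enzymes that insert oxygen into steroids, fatty acids, vitamins and foreign compounds, with electrons supplied by the reductase Por or, in mitochondria, by ferredoxin. Glutathione transferases couple the tripeptide glutathione to reactive or oxidised molecules, which are then exported or degraded. In brain microvessels both families are known as part of the metabolic side of the blood-brain barrier, and Cyp1b1, a target of the aryl hydrocarbon receptor (AhR), is a P450 known for its expression there.

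Vessels were isolated from whole brains of mice aged 3 months, and the study's methods state that only males were used and that the vessels of 3 mice were pooled for each library. Each group had 1 library. The C57BL6 WT library and the C57BL6-BALB/c WT library came from mice with intact Cx30 on a pure and a mixed background. The Cx30-/- library came from mice in which Cx30 (gene Gjb6) was deleted in all tissues, so that no cell type of the vessel wall or brain kept it. The labels give the Cx30-/- library a C57BL6 background, whereas the study's methods give a mixed background for it and for its own WT controls, so each WT library was used as a comparator in turn.

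With 1 library per group, no difference could be set against a spread between replicates. Ratios below therefore carry a 95% exact binomial interval for read sampling alone, and mouse, pool, preparation and background cannot be told apart between any pair of libraries. Counts summed to between 50375426 and 60725557 per library over all transcripts. Gjb6 (ENSMUSG00000040055) gave 2531 normalized counts in C57BL6 WT, 2426 in C57BL6-BALB/c WT and 100.7 in Cx30-/-, so the deleted gene was low where the label says so. Markers of endothelium, smooth muscle and pericytes were read in every library, and so were markers of neurons, astrocytes, oligodendrocytes and choroid plexus, with 9137, 13657 and 8042 normalized counts of neuronal Snap25 in C57BL6 WT, C57BL6-BALB/c WT and Cx30-/-, in that order. All values therefore describe a vessel fraction with other brain tissue in it, in which fewer cells of a type and less RNA per cell cannot be told apart.

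Most Cyp genes were barely read in these vessels, whereas most Gst genes were. A normalized count here is the count of the gene's most read transcript divided by a size factor of the library. Of the 122 genes, 43 had no read in any library, 41 had reads but stayed under 50 normalized counts, and 38 reached 50 in at least 1 library. For Cyp genes these 3 numbers were 41, 37 and 24 of 102, and for Gst genes 2, 4 and 14 of 20. The large Cyp2 family, which holds most enzymes of drug metabolism, had 9 of 50 genes at 50 or more, Cyp3 had 1 of 9 and Cyp4 had 6 of 25. The mu class of transferases (Gstm) had 6 of 7 genes at 50 or more and the theta class (Gstt) had 3 of 3.

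**Figure D1:**
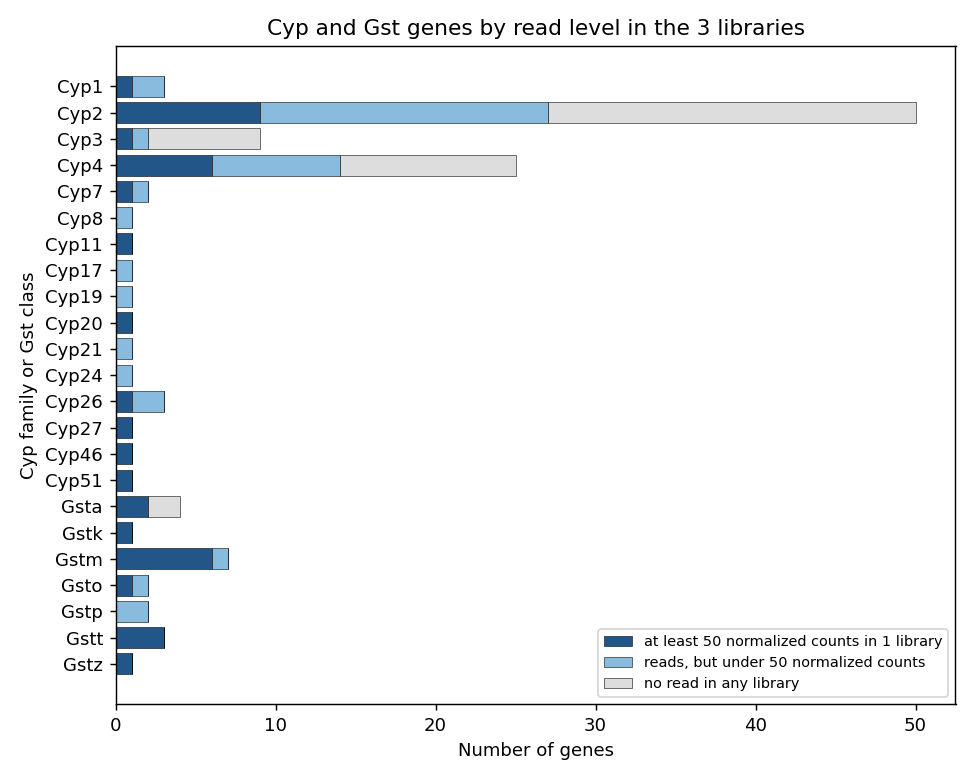
Number of genes (horizontal axis) in each Cyp family or Gst class, divided into genes with at least 50 normalized counts in 1 library, genes with reads but under 50, and genes with no read in the 3 libraries. The Cyp2 bar is the longest, with 23 of its 50 genes unread, while the Gstm and Gstt bars are almost wholly in the highest class.

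Reads matching more than 1 place in the genome had been removed before counting, which lowers the counts of near-identical copies. Among the 43 unread genes a median of 82.32% of the 50-base windows of the transcript was found in no other gene, against 97.53% among the 38 genes at 50 or more. In 5 of the 43 fewer than 50% of windows were unique, including Cyp3a41a with 1.39% and Gsta1 with 10.3%. For these genes an absence of reads says little about the transcript. None of the 38 genes at 50 or more had a value under 74.0%, which was that of Gstt3.

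The most read member was Cyp46a1 (ENSMUSG00000021259, GRCm38 chr12:108334381-108362234, plus strand), which hydroxylates cholesterol for export from the brain and is known as a neuronal enzyme. It held 15013 of the 41565 reads counted in Cyp genes. Per kb of transcript its mean level over the 3 libraries was 2351 normalized counts, higher than 97.81% of the 14542 genes with a mean of at least 50 normalized counts. Next among Cyp genes by level per kb came Cyp2d22 with 583, Cyp51 with 363, Cyp27a1 with 278 and Cyp4f13 with 266. Cyp1b1 stood at 161 per kb, above 33.96% of those genes.

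Among Gst genes the level per kb was highest for Gsta4, an alpha class enzyme that conjugates aldehydes from oxidised lipids, with a mean of 1269 and 93.74% of genes below it. Gstz1, which isomerises maleylacetoacetate in the breakdown of tyrosine, had 783 per kb and Gstm5 had 761. An antisense gene overlaps 18.84% of the 945 annotated exon bases of Gstm5, and the library kit did not record strand. The row counted for Gstm5 was 864 bases long, and the share of its reads from that gene is not known. Gstm1 had 445 per kb, above 69.24% of genes, and Gstt1 and Gstt2 stood next to each other at 383 and 382. The members thus covered the range from unread to the top few percent of expressed genes.

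**Figure D2:**
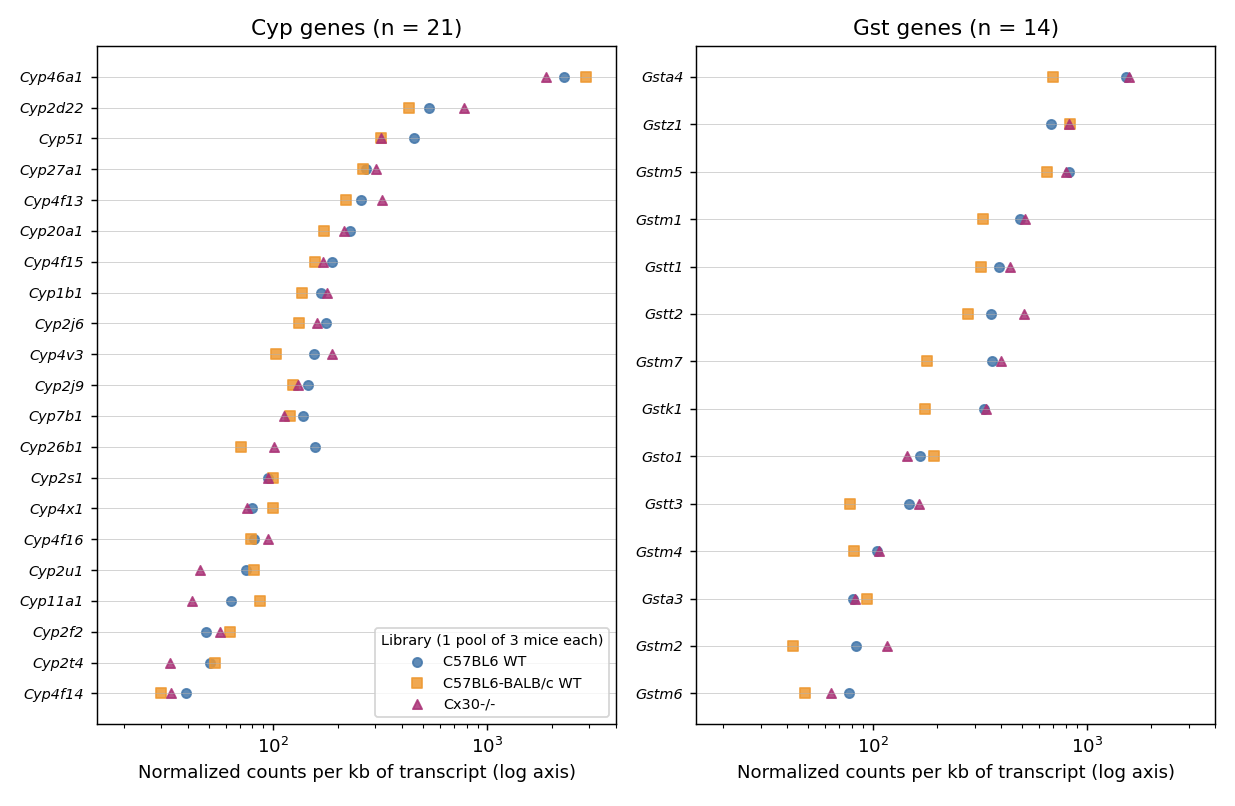
Normalized counts per kb of transcript (log axis) in each of the 3 libraries for the 21 Cyp and 14 Gst genes with a mean of at least 50 normalized counts, ordered by mean level. One point is 1 library of 3 pooled mice. Cyp46a1 leads the Cyp genes at a mean of 2351 per kb and Gsta4 the Gst genes at 1269, and for Gsta4 the C57BL6-BALB/c WT point (696) lies well to the left of the other points (1535 and 1576).

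The comparison the study was built on asks which genes differ in Cx30-/- vessels whatever the WT background. No member met it: 0 of the 36 members with at least 50 normalized counts in 1 library of each comparison differed by at least 2-fold in the same direction from both WT libraries, against 1.42% of all 14688 genes tested. The comparisons share the Cx30-/- library. Against C57BL6 WT alone, 2 of 38 members differed by at least 2-fold (2.68% of all genes). Both were lower, Cyp2e1 and Cyp2g1, as were 1.26% of all genes. These genes reached 50 normalized counts only in C57BL6 WT, so they could only be called lower. Against C57BL6-BALB/c WT alone, 5 of 36 differed (8.69% of all genes), with Gsta4, Gstm2, Gstm7 and Gstt3 higher in Cx30-/- and Cyp11a1 lower, against 3.96% and 4.73% of all genes. The WT libraries differed from each other by at least 2-fold in 5 of 38 members (3.43% of all genes). Cyp26b1, Cyp2e1, Cyp2g1, Gsta4 and Gstm7 were lower in C57BL6-BALB/c WT and 0 were higher, against 2.02% and 1.41% of all genes. Here too Cyp2e1 and Cyp2g1 reached 50 normalized counts only in C57BL6 WT. At a threshold of 1.5-fold, 3 members were lower in Cx30-/- than in both WT libraries, Cyp11a1, Cyp2t4 and Cyp2u1, against 4.28% of all genes.

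With both WT libraries taken as 1 group against Cx30-/-, edgeR's quasi-likelihood test with Benjamini-Hochberg adjustment called 0 of 47 members at an adjusted p under 0.05 (0.0512% of all genes). At an unadjusted p under 0.05 it listed 3 of 47 (8.69% of all genes), Cyp2d22 and Gstt2 higher and Cyp2g1 lower, with 3.67% and 5.02% of all genes in these directions. DESeq2 called 0 of 35 members at an adjusted p under 0.05 (0.0493% of all genes) and 0 of 79 at an unadjusted p under 0.05 (3.77% of all genes). The only error these tests have is the difference between the WT libraries, which includes their difference in background.

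Members are described below by role, beginning with the AhR-regulated family 1. Cyp1b1 (ENSMUSG00000024087, chr17:79701537-79715061, minus strand) reached 859 normalized counts in C57BL6 WT, 702 in C57BL6-BALB/c WT and 919 in Cx30-/-. The log2 ratio of Cx30-/- was 0.10 (95% interval -0.04 to 0.23) to C57BL6 WT and 0.39 (0.24 to 0.54) to C57BL6-BALB/c WT. Its level was thus highest in Cx30-/- and nearly as high in C57BL6 WT, and edgeR's adjusted p was 0.914. The other 2 members of the family were close to unread, with raw counts of 12, 1 and 1 for Cyp1a1 and of 10, 0 and 0 for Cyp1a2 in C57BL6 WT, C57BL6-BALB/c WT and Cx30-/-.

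Of the 6 listed sterol and bile acid enzymes in the files, 4 reached 50 normalized counts. Cyp46a1 showed 4853 normalized counts in C57BL6 WT, 6132 in C57BL6-BALB/c WT and 3963 in Cx30-/-. Its log2 ratio in Cx30-/- was -0.29 (-0.35 to -0.23) to C57BL6 WT and -0.63 (-0.69 to -0.57) to C57BL6-BALB/c WT, so that it was lowest in Cx30-/- without reaching 2-fold, and edgeR's adjusted p was 0.825. The 8 neuronal markers stood beside it with summed normalized counts of 40196, 48542 and 28143 in the same order of libraries, and 7 of the 8 were lower in Cx30-/- than in each WT library. Their part in the level of Cyp46a1 was not tested.

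Cyp51, which removes a methyl group from lanosterol on the way to cholesterol, gave 1782 normalized counts in C57BL6 WT, 1249 in C57BL6-BALB/c WT and 1251 in Cx30-/-. It was high in 1 WT library and equal in the remaining pair, with a log2 ratio of 0.00 (-0.12 to 0.12) between Cx30-/- and C57BL6-BALB/c WT. Cyp27a1, a mitochondrial sterol hydroxylase of bile acid synthesis, had 512, 495 and 571 normalized counts in C57BL6 WT, C57BL6-BALB/c WT and Cx30-/-. Cyp7b1, which hydroxylates oxysterols, had 298, 260 and 243. Cyp7a1 and Cyp8b1, the liver enzymes that start and direct bile acid synthesis, stayed under 6 normalized counts in every library.

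Retinoic acid breakdown was represented by Cyp26b1 (ENSMUSG00000063415, chr6:84571414-84593908, minus strand). It reached 655 normalized counts in C57BL6 WT, 295 in C57BL6-BALB/c WT and 418 in Cx30-/-. The log2 ratio between the WT libraries was -1.15 (-1.36 to -0.95), and Cx30-/- lay between them, at -0.65 (-0.83 to -0.47) to C57BL6 WT and 0.50 (0.28 to 0.73) to C57BL6-BALB/c WT. Cyp24a1, Cyp2r1, Cyp26a1 and Cyp26c1, which act on vitamin D or retinoic acid, had between 3.49 and 20.98 normalized counts.

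In steroid hormone synthesis Cyp11a1 (ENSMUSG00000032323, chr9:58006411-58027023, plus strand), the mitochondrial enzyme that turns cholesterol into pregnenolone, showed 113 normalized counts in C57BL6 WT, 155 in C57BL6-BALB/c WT and 74.5 in Cx30-/-. It was the lowest of the 3 in Cx30-/-, with a log2 ratio of -0.60 (-1.04 to -0.17) to C57BL6 WT and -1.05 (-1.48 to -0.63) to C57BL6-BALB/c WT. Both intervals lie below 0, yet only the second ratio passed 2-fold, and edgeR's adjusted p was 0.637. When libraries were scaled by the total the authors divided by, this ratio no longer reached 2-fold. Cyp19a1 (aromatase), Cyp17a1 and Cyp21a1 stayed under 8 normalized counts in every library.

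Cyp2d22, the most read member of family 2, gave 923 normalized counts in C57BL6 WT, 745 in C57BL6-BALB/c WT and 1349 in Cx30-/-. It was highest in Cx30-/-, with log2 ratios of 0.55 (0.43 to 0.67) and 0.86 (0.72 to 0.99) to the respective WT libraries, and an adjusted p of 0.447 by edgeR. The Cyp2j enzymes make epoxides of arachidonic acid, which dilate brain arterioles, and 2 of the 12 listed were read at a mean of 50 or more. Cyp2j6 had 635, 476 and 577 normalized counts and Cyp2j9 had 295, 252 and 265 in C57BL6 WT, C57BL6-BALB/c WT and Cx30-/-. Cyp2j6 was lowest in C57BL6-BALB/c WT, by less than 2-fold. For Cyp2j9 the interval between the WT libraries held 0 (log2 ratio -0.23, -0.477 to 0.015), and with its longest transcript row the ratio was 0.07.

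The weakly read Cyp2u1, a fatty acid hydroxylase, had 120, 131 and 73.4 normalized counts in C57BL6 WT, C57BL6-BALB/c WT and Cx30-/-. Cyp2t4 had 81.2, 85.3 and 52.5 in the same order. These are 2 of the 3 members that were at least 1.5-fold lower in Cx30-/- than in both WT libraries, with edgeR's adjusted p at 0.683 and 0.794. An antisense gene overlaps 12.45% of the 4378 annotated exon bases of Cyp2u1, and the library kit did not record strand. The row counted was 1606 bases long and its own overlap was not measured. Whether its reads include some of that gene is therefore not known.

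Family 4 enzymes oxidise the ends of fatty acids and, in the Cyp4f group, inactivate leukotrienes. All 4 Cyp4f genes with a mean of at least 50 normalized counts were lowest in C57BL6-BALB/c WT, with a median log2 ratio of -0.25 to C57BL6 WT. Cyp4f13 reached 450 normalized counts in C57BL6 WT, 383 in C57BL6-BALB/c WT and 565 in Cx30-/-. Cyp4v3 had 458, 306 and 555 in that order, a log2 ratio of 0.86 (0.65 to 1.07) between Cx30-/- and C57BL6-BALB/c WT. Cyp4x1, a brain P450 with an overlapping antisense gene that is itself named Cyp4x1os, had 334, 418 and 315 normalized counts and so stood highest in C57BL6-BALB/c WT.

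A small set of P450 genes was read mainly in 1 WT library. Cyp2g1 (ENSMUSG00000049685, chr7:26808892-26821205, plus strand), known as a P450 of the olfactory mucosa, had raw counts of 101 in C57BL6 WT, 0 in C57BL6-BALB/c WT and 2 in Cx30-/-. Against a floor of 3 counts per library it was at least 27.2-fold lower in C57BL6-BALB/c WT than in C57BL6 WT, and the log2 ratio of Cx30-/- to C57BL6 WT was -5.39 (-8.46 to -3.50). In C57BL6 WT its reads covered 1362 of the 1895 bases of the transcript, so they were spread over the gene. The edgeR test gave a log2 difference of -4.34 with an unadjusted p of 0.0107 and an adjusted p of 0.375.

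Cyp2e1 (ENSMUSG00000025479, chr7:140763739-140774987, plus strand), which oxidises ethanol and small solvents and is abundant in liver, had raw counts of 121, 3 and 38 in C57BL6 WT, C57BL6-BALB/c WT and Cx30-/-. The log2 ratio was -5.03 (-7.33 to -3.45) between the WT libraries and -1.41 (-1.97 to -0.87) between Cx30-/- and C57BL6 WT. Cx30-/- again lay between the WT libraries, at 3.62 (1.96 to 5.96) to C57BL6-BALB/c WT, a ratio that was not counted because both libraries held under 50 normalized counts. Cyp2a5, known from liver and nasal mucosa, had raw counts of 13, 0 and 0, and like Cyp1a1 and Cyp1a2 was read almost only in C57BL6 WT.

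The same library also held transcripts of olfactory tissue. Over all genes, 3 had at least 50 normalized counts in C57BL6 WT and under 5 in both remaining libraries, and these were Cyp2g1, Ugt2a1 and Ugt2a2, the last pair being glucuronidation enzymes of olfactory epithelium that share exons. Ugt2a1 had 72.5, 0 and 1.05 normalized counts in C57BL6 WT, C57BL6-BALB/c WT and Cx30-/-. Omp, the marker protein of mature olfactory neurons, had 159, 16.2 and 18.9. For the reverse cases, 1 gene stood out in this way in C57BL6-BALB/c WT and 0 in Cx30-/-.

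The whole marker lists, which were chosen after these values were seen, were mixed. The 6 nasal epithelium and gland genes in the files summed to 106 normalized counts in C57BL6 WT, 15.1 in C57BL6-BALB/c WT and 8.39 in Cx30-/-, while the odorant binding protein genes Obp1a and Obp2a were at 0 in every library. The 7 olfactory neuron genes summed to 930, 697 and 925, and of the 6 with a mean of at least 50 normalized counts, all but Cnga4 were below C57BL6 WT in C57BL6-BALB/c WT and all but Stoml3 in Cx30-/-. The 6 hepatocyte genes summed to 40.2, 20.5 and 17.8, with Alb at 0 in C57BL6 WT. The part of olfactory tissue in the Cyp2g1 and Cyp2e1 differences was not tested.

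**Figure D3:**
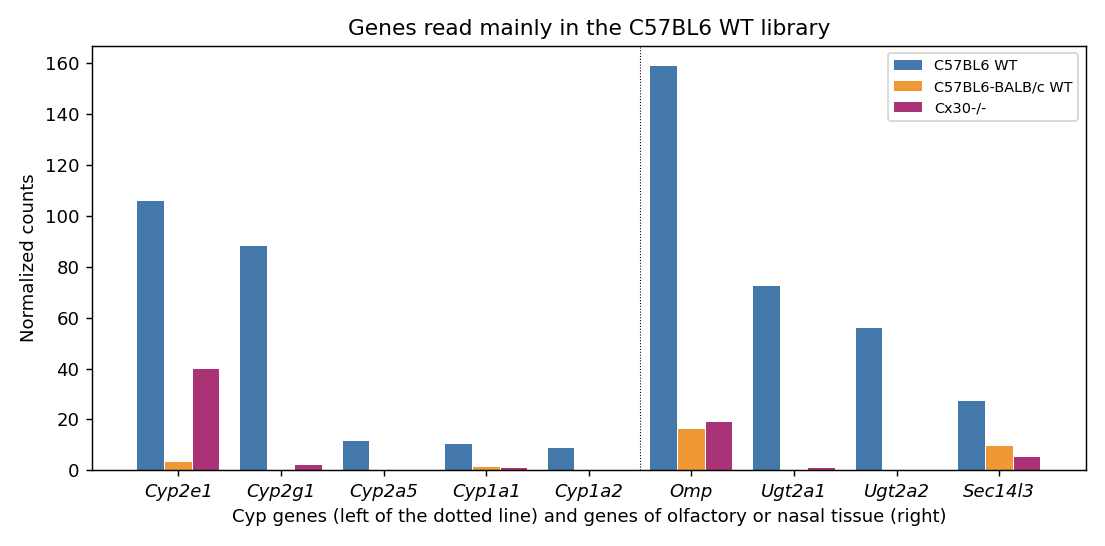
Normalized counts (vertical axis) of 5 Cyp genes, left of the dotted line, and of 4 genes of olfactory or nasal tissue, right of it, in the 3 libraries. Bars are single libraries without replicate error. The 9 genes were picked after their values were seen, for being read mainly in C57BL6 WT, and all 9 are highest there. Cyp2g1 stands at 88.2 and Omp at 159 in that library. The wider marker lists were mixed: the 7 olfactory neuron genes summed to 930 in C57BL6 WT, 697 in C57BL6-BALB/c WT and 925 in Cx30-/-.

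Most glutathione transferases were lower in C57BL6-BALB/c WT than in the other two libraries. Of the 14 Gst genes with a mean of at least 50 normalized counts, 11 (78.57%) were lowest in C57BL6-BALB/c WT, against 41.3% of the 14542 genes with that mean. The median log2 ratio of the 14 was -0.47 between C57BL6-BALB/c WT and C57BL6 WT, 0.06 between Cx30-/- and C57BL6 WT, and 0.56 between Cx30-/- and C57BL6-BALB/c WT, with medians over all genes of 0.00, -0.01 and 0.00. The interval of read sampling left out 0 for 12 of 14 in the first comparison, for 3 of 14 in the second and for 11 of 14 in the third (64.5%, 53.93% and 71.88% of all genes). Cx30-/- and C57BL6 WT were therefore close in most transferases, and C57BL6-BALB/c WT stood apart.

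In the alpha class Gsta4 (ENSMUSG00000032348, chr9:78182774-78209349, plus strand) showed 1392 normalized counts in C57BL6 WT, 631 in C57BL6-BALB/c WT and 1430 in Cx30-/-. The log2 ratio was -1.14 (-1.28 to -1.004) between the WT libraries, 1.18 (1.04 to 1.32) between Cx30-/- and C57BL6-BALB/c WT, and 0.04 (-0.07 to 0.14) between Cx30-/- and C57BL6 WT. The gene was thus more than 2-fold lower in 1 WT library and level in the remaining pair, with an adjusted p of 0.775 by edgeR. Gsta3 had 93.4, 109 and 95.5 normalized counts and did not share this order. Gsta1 and Gsta2 were unread, with few unique windows.

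The mu class genes lie together on chromosome 3, the 6 read at 50 or more between 107895821 and 108044894 of GRCm38. All 6 were lower in C57BL6-BALB/c WT than in the other two libraries. Gstm1 (ENSMUSG00000058135, chr3:108012255-108017973, minus strand) gave 633 normalized counts in C57BL6 WT, 421 in C57BL6-BALB/c WT and 666 in Cx30-/-. Its log2 ratio in Cx30-/- was 0.07 (-0.08 to 0.23) to C57BL6 WT and 0.66 (0.48 to 0.85) to C57BL6-BALB/c WT, with an adjusted p of 0.878 by edgeR. Only 76.9% of its 50-base windows were unique, because Gstm3 and pseudogenes share sequence with it, so its count leaves out an unknown number of reads.

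Gstm7 (ENSMUSG00000004035, chr3:107926334-107931817, minus strand) reached 499 normalized counts in C57BL6 WT, 246 in C57BL6-BALB/c WT and 548 in Cx30-/-. Its log2 ratio in Cx30-/- was 1.15 (0.93 to 1.38) to C57BL6-BALB/c WT and 0.14 (-0.04 to 0.31) to C57BL6 WT, and all its windows were unique. Gstm2 (ENSMUSG00000040562, chr3:107981702-107986453, minus strand) was weaker, at 89.1, 45.4 and 124 normalized counts. Its log2 ratio of 1.45 (0.93 to 1.99) between Cx30-/- and C57BL6-BALB/c WT was the highest among the 14 Gst genes, and the ratio to C57BL6 WT was 0.47 (0.08 to 0.87). Gstm4 had 178, 140 and 183, Gstm5 had 716, 564 and 692, and Gstm6 had 91.7, 57.3 and 75.5 normalized counts, each differing by less than 2-fold in every comparison.

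Since Gstm1, Gstm2 and Gstm7 were low together in 1 library, the 250 bases before their first RefSeq transcription start are shown with those of Cyp1b1, each 5′ to 3′ on the minus strand of GRCm38.p6. Capitals mark GCGTG or its complement CACGC, the core letters bound by the AhR. The windows are chr3:108017974-108018223 for Gstm1, chr3:107931818-107932067 for Gstm7, chr3:107986421-107986670 for Gstm2 and chr17:79715062-79715311 for Cyp1b1.
Gstm1: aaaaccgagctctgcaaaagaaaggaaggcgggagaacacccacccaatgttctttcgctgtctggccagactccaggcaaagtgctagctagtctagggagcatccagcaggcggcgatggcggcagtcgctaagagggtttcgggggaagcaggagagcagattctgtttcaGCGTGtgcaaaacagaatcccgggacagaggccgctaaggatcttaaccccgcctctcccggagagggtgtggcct
Gstm7: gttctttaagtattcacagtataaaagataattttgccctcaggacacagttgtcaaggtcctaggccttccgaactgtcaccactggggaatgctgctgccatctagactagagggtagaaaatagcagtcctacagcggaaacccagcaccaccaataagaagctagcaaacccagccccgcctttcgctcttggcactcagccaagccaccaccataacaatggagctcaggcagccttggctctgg
Gstm2: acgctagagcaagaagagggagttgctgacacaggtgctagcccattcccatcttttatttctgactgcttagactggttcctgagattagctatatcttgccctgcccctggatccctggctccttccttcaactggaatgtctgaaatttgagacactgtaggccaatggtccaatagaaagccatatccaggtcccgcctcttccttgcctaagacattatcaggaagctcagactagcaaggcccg
Cyp1b1: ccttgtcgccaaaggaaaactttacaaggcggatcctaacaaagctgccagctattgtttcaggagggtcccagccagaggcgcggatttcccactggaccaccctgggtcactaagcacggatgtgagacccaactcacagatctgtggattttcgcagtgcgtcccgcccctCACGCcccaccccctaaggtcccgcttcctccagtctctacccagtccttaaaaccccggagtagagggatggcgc
The Cyp1b1 and Gstm1 windows each held the AhR core once, and those of Gstm7 and Gstm2 did not hold it. On either strand this core occurred in 28.2% of the 32851 RefSeq windows of the same length and in 20.6% of the 107 windows of 90 members. The core of the antioxidant response element, TGACNNNGC or GCNNNGTCA, occurred in 10.2% and 5.61% of them. It was in none of the 4 windows shown, but the window before the second RefSeq start of Gstm7 (chr3:107931615-107931864) held it once. These letters alone do not show binding.

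The theta class genes Gstt1, Gstt2 and Gstt3 lie next to each other on chromosome 10. Gstt3 (ENSMUSG00000001665, chr10:75774115-75781414, minus strand) showed 278 normalized counts in C57BL6 WT, 147 in C57BL6-BALB/c WT and 310 in Cx30-/-, a log2 ratio of 1.08 (0.78 to 1.38) between Cx30-/- and C57BL6-BALB/c WT. It shares 27.87% of its exon bases with Gm20441 on the same strand, so its reads cannot be assigned with certainty. Gstt2 had 320, 251 and 455 and was highest in Cx30-/-, with log2 ratios of 0.51 (0.31 to 0.72) and 0.86 (0.63 to 1.098) to the respective WT libraries, an unadjusted p of 0.0391 and an adjusted p of 0.541 by edgeR. Gstt1 stood at 403, 332 and 456.

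Among the remaining classes Gstk1, a transferase of mitochondria and peroxisomes, gave 293 normalized counts in C57BL6 WT, 157 in C57BL6-BALB/c WT and 300.0 in Cx30-/-, just short of 2-fold at a log2 ratio of 0.94 (0.65 to 1.24) to C57BL6-BALB/c WT. Gstz1 had 1127, 1390 and 1369 and Gsto1, an omega class enzyme that reduces dehydroascorbate, had 197, 229 and 172. With Gsta3, these were the 3 of 14 Gst genes that were not lowest in C57BL6-BALB/c WT. Gstp2 and the other pi class gene in the files held 6 reads over the 3 libraries. Only 27.41% of the 50-base windows of Gstp2 were unique, so its low count says little about the transcript.

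**Figure D4:**
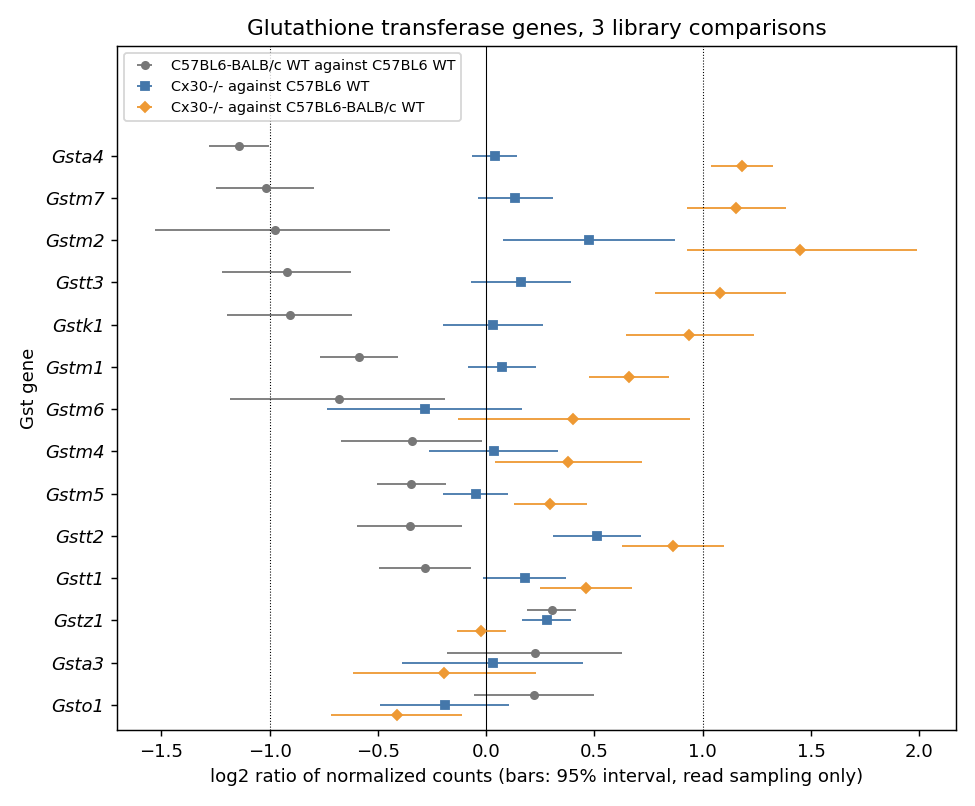
Log2 ratio of normalized counts (horizontal axis) for the 14 Gst genes with a mean of at least 50 normalized counts in the 3 library comparisons. Bars are 95% intervals of read sampling and dotted lines mark 2-fold. Gsta4 lies at -1.14 between the WT libraries and 1.18 between Cx30-/- and C57BL6-BALB/c WT, while its value for Cx30-/- against C57BL6 WT is 0.04.

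Enzymes that work with these families were read from fixed lists. Transcripts of all 9 listed proteins that supply electrons to P450s or bind them were read, and 0 of 9 differed by 2-fold in any of the 3 comparisons. Over all genes the shares were 3.43% between the WT libraries, 2.68% for Cx30-/- against C57BL6 WT and 8.69% against C57BL6-BALB/c WT. Por, the reductase of all microsomal P450s, reached 2531 normalized counts in C57BL6 WT, 2378 in C57BL6-BALB/c WT and 2392 in Cx30-/-, so it hardly moved. Cyb5r3, which reduces cytochrome b5, had 3656, 2557 and 4645 in that order. Among AhR and xenobiotic receptors 0 of the 9 tested differed by 2-fold in any comparison, beside the same shares of all genes. Of these 9, 6 were lower and 3 higher in C57BL6-BALB/c WT than in C57BL6 WT. Nfe2l2 (Nrf2), the activator of many Gst genes, had 1463, 999 and 1765 normalized counts. Arnt, the most read of the list, went the other way with 3608, 4521 and 3066, and Ahr had 464, 492 and 624.

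Glutathione itself is made and recycled by a separate set of genes, of which 12 of 12 were read. In Cx30-/-, 0 of the 12 differed by 2-fold from either WT library, where 2.68% (C57BL6 WT) and 8.69% (C57BL6-BALB/c WT) of all genes did. Ggt1, which cleaves extracellular glutathione, had 369, 172 and 323 normalized counts in C57BL6 WT, C57BL6-BALB/c WT and Cx30-/-. Of the 12 it alone differed by 2-fold between the WT libraries, where 3.43% of all genes did. Ggt7 had 3870, 5919 and 2977. All 8 Nrf2 target genes were read, of which Slc7a11, Gclc and Gclm also belong to the glutathione list. In any comparison 0 of 8 differed by 2-fold, where between 2.68% and 8.69% of all genes did. Slc7a11, the cystine transporter, had 3013, 2807 and 3481 normalized counts.

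Of 7 microsomal and other glutathione transferases or related proteins, 1 was at least 2-fold higher in Cx30-/- than in C57BL6-BALB/c WT. Over all genes 3.96% were higher in this comparison. The gene was Alox5ap, the helper protein of leukotriene synthesis, with 103, 60.5 and 161 normalized counts in C57BL6 WT, C57BL6-BALB/c WT and Cx30-/-. Ltc4s, which makes leukotriene C4 with glutathione, had 238, 116 and 195. It was 2-fold lower in C57BL6-BALB/c WT than in C57BL6 WT, as were 2.02% of all genes. The most read gene of this list, Mgst1, had 879, 557 and 898. Their median log2 ratios of -0.49, 0.07 and 0.68 over the 3 comparisons lay near those of the soluble transferases.

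Epoxide hydrolases and other conjugating enzymes gave 1 gene of 7 past 2-fold in each comparison with Cx30-/-, where 2.68% (against C57BL6 WT) and 8.69% (against C57BL6-BALB/c WT) of all genes passed. Ephx2, the soluble hydrolase that removes P450-made epoxides of arachidonic acid, lies on chromosome 14 (66084374-66124500, minus strand), as does the deleted Gjb6. The part of this location in its values was not tested. Ephx2 showed 295 normalized counts in C57BL6 WT, 243 in C57BL6-BALB/c WT and 137 in Cx30-/-. Its log2 ratio in Cx30-/- was -1.10 (-1.41 to -0.81) and -0.82 (-1.14 to -0.51) to the respective WT libraries, so it was the lowest of the 3 in Cx30-/-, with an adjusted p of 0.419 by edgeR. Nat2, an acetyltransferase, had 68.1, 48.6 and 114 normalized counts and passed 2-fold against C57BL6-BALB/c WT. Sult1a1, a phenol sulfotransferase, had 637, 615 and 1121, with an adjusted p of 0.330 by edgeR. Of the 5 eicosanoid synthases, Ptgs2 was highest in C57BL6-BALB/c WT, with 1179, 3094 and 1424.

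Most markers of endothelium and pericytes were lowest in C57BL6-BALB/c WT, as most transferases were. All 10 endothelial markers were lower in C57BL6-BALB/c WT than in C57BL6 WT and higher in Cx30-/- than in either, with summed normalized counts of 121266 in C57BL6 WT, 71036 in C57BL6-BALB/c WT and 148635 in Cx30-/-. Their median log2 ratios were -0.70 between the WT libraries, 0.23 between Cx30-/- and C57BL6 WT and 0.87 between Cx30-/- and C57BL6-BALB/c WT. The 7 pericyte markers had medians of -0.68, 0.07 and 0.64 and the 7 fibroblast markers of -0.31, 0.21 and 0.57. The part of these cells in the Gst values was not tested.

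Choroid plexus markers were lower in C57BL6-BALB/c WT for 6 of 6 genes, with a median log2 ratio of -1.30 to C57BL6 WT and of 0.51 between Cx30-/- and C57BL6-BALB/c WT. Smooth muscle markers were instead higher in C57BL6-BALB/c WT for 7 of 7 genes, with a median of 0.49 between the WT libraries. Astrocyte markers, whose cells carry Cx30 in the WT, had medians of 0.04, -0.22 and -0.17. Microglia and macrophage markers had medians of -0.42, -0.15 and 0.23, oligodendrocyte markers of -0.37, -0.40 and -0.33, and red cell and neutrophil markers of -0.76, 1.57 and 2.05, the last value being the largest median among the lists plotted.

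**Figure D5:**
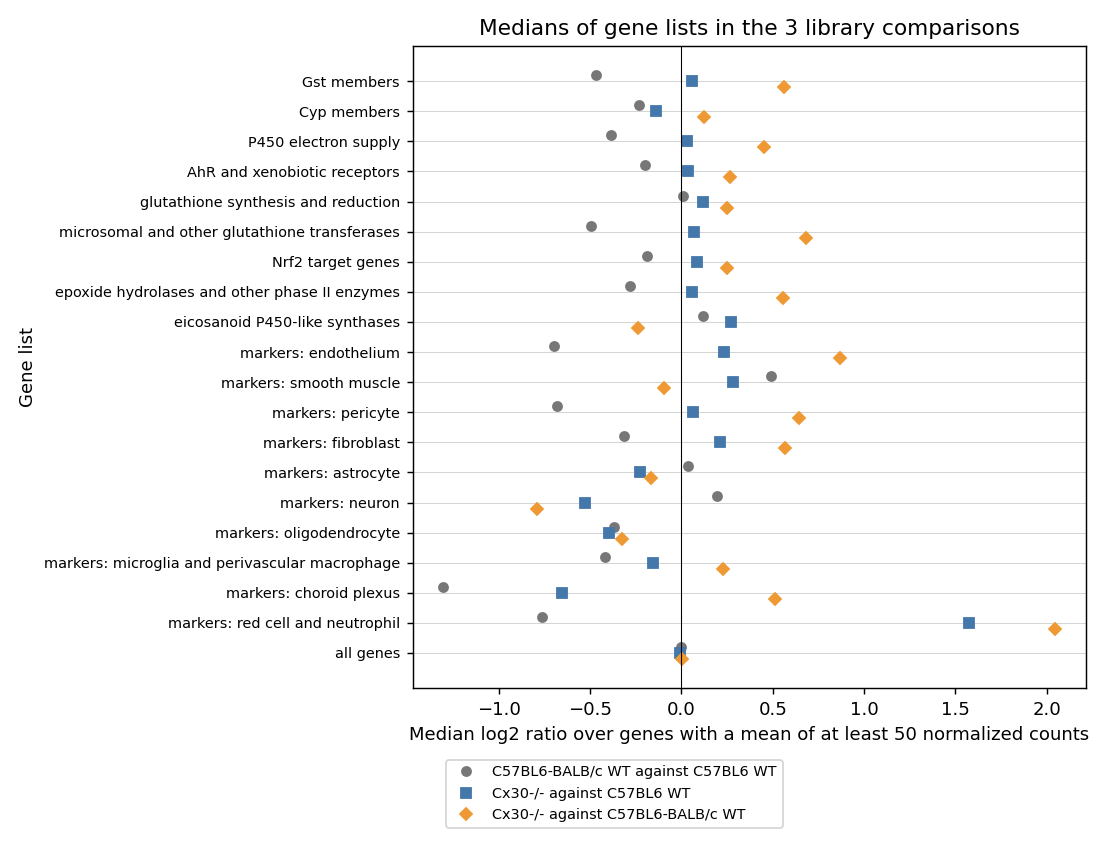
Median log2 ratio (horizontal axis) of the Cyp and Gst genes, of lists of related enzymes and of cell type markers in the 3 library comparisons, over genes with a mean of at least 50 normalized counts. The medians carry no test. Gst genes lie at -0.47, 0.06 and 0.56 and endothelial markers at -0.70, 0.23 and 0.87, while the medians of all genes are within 0.01 of 0.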

How the data were processed

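Polyadenylated RNA of purified brain vessels was read in 3 libraries (pools of 3 mice) with a kit that does not record strand and single reads of 50 bases. Base calling with CASAVA 1.8.2 is named in the submitters' processing notes. Per the study's methods, reads were aligned to mm10, reads with several matches were removed and alignments overlapping exons were counted. The authors deposited the raw count for each of 82813 transcripts, and that count divided by a library total (20654144 to 24830975), a fraction. They also deposited transcript length and bases not covered. A read on a shared exon was counted for each of its transcripts. The positions in the files run past the end of an mm10 chromosome, so coordinates were taken from GENCODE M21 on GRCm38 through the transcript identifiers, which named 69379 transcripts (83.78%).

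Each gene took its transcript row with the largest total count, a choice that mattered for 35 members with several rows. Size factors by the median-of-ratios method, by which counts were divided, were 1.15, 0.926 and 0.953 for C57BL6 WT, C57BL6-BALB/c WT and Cx30-/-. Ratios needed 2-fold, the threshold of the study, and at least 50 normalized counts in 1 library. The study set its minimum at 50 reads without saying in how many libraries. No pseudocount was added. Intervals are 95% exact conditional binomial (scipy 1.17.1). All genes were fitted with edgeR 4.0.16 (filterByExpr, TMM, quasi-likelihood test, Benjamini-Hochberg) and DESeq2 1.42.0 in R 4.3.3. The edgeR test and the 2-fold selection were checked on simulated data, and DESeq2 was not. The common biological coefficient of variation was 0.2103. Medians and percentages of genes below a level used genes with a mean of at least 50 normalized counts. So did the shares of genes lowest in a library or with an interval without 0. Shares set beside called members used the genes tested, 14688 to 14891 for 2-fold and 17576 for edgeR after its filter. For DESeq2 they used 14194 genes (adjusted p) or 22472 (unadjusted p). Unique windows of 50 bases were counted against GENCODE M21 transcripts, and promoter sequences came from RefSeq (GRCm38.p6), which held 90 members. Windows and overlaps refer to the M21 version of a transcript, whose length differs for some members from that of the row counted.

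The members and lists were chosen with earlier results of these data known, and the olfactory, nasal and hepatocyte lists after the values were seen. Genes were named when a member passed 2-fold in any comparison, was Cyp1b1 or Gstm1, was among the 5 Cyp or 5 Gst genes with the highest level per kb, or belonged to a role list and reached 50 normalized counts. For related lists the rule was to name genes passing 2-fold against both WT libraries, or else up to 2 of the most read. It was not followed throughout, as Pgrmc1, Ephx1 and Ptgds, the most read of their lists, were not described above. In C57BL6 WT, C57BL6-BALB/c WT and Cx30-/-, Pgrmc1 had 6204, 5668 and 5932 normalized counts. Ephx1 had 2923, 2454 and 3345, and Ptgds had 67567, 73356 and 90282. The remaining genes named were chosen after their values were seen. Alternatives were TMM factors, the authors' total, the sum of rows or the longest row, a pseudocount of 1, other count minimums, 1.5-fold, and other test settings.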

Additional observations from a re-analysis of the deposited data

How the results depend on the processing

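The number of members differing by at least 2-fold (5, 2, 5 and 0 for C57BL6-BALB/c WT against C57BL6 WT, Cx30-/- against C57BL6 WT, Cx30-/- against C57BL6-BALB/c WT, and Cx30-/- against both) followed the threshold more than the scaling. Without a count minimum the numbers were 24, 25, 26 and 11. With at least 50 normalized counts in both libraries the first 2 were 3 and 0, and with at least 100 in 1 library the second was 1. At 1.5-fold they were 10, 6, 13 and 3. Apart from the 4.28% of all genes lower than both WT libraries at 1.5-fold, shares of all genes at these settings are not given. The numbers therefore do not set members against other genes. The count minimums change which genes are admitted, whereas the 1.5-fold setting admits the same genes and lowers the ratio they must reach. Without a filter edgeR called 1 member, Cyp2g1 (0.601% of all genes). TMM factors, the authors' total, the sum of rows, the longest row and a pseudocount of 1 kept these numbers within 1.5 times. Of 112 single ratios, 2 moved beyond their interval with the authors' total (both of Cyp46a1, to 0.26 and -0.55) and 1 with the longest row (Cyp2j9, to 0.07 between the WT libraries), and no called ratio changed sign.

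No paired analysis was possible because each group has 1 library and the labels carry no replicate numbers, and for the same reason no replicate could be left out. At low depth the intervals were wide: Cyp2j12, with 41 and 24 reads in the WT libraries, had a log2 interval of -1.26 to 0.295.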
